A study of Mus musculus with 12 samples.

Results

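The 44 genes described here drive a cell from the end of DNA replication through chromosome segregation and cytokinesis. They were chosen by name as well-known mitosis and G2/M genes by a rule that uses no measured value, though with earlier results of these data known. They were found through their Ensembl identifiers in GENCODE M21 (GRCm38). All 44 were present among the 32285 gene identifiers of the hematopoietic stem cell (HSC) table and the 56980 of the macrophage table. All 44 also passed the filter on low counts in both tables and had reads in each of the 12 libraries, with a lowest count of 223 in HSCs and 14 in macrophages.

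RNA was sequenced from HSCs (DAPI-, CD45+, Lin-, cKit+, Sca1+, CD48-, CD150+) and from CD169+ macrophages that had been sorted from mouse fetal livers at E14.5 of gestation. Embryos of both genotypes carried loxP-flanked (floxed) Jag1, which encodes a Notch ligand, and differed in Vav-Cre, a Cre recombinase under a promoter active in blood cells generally and also in part of the endothelium. Each sort had 3 Cre negative and 3 Cre positive libraries. The HSC embryos were littermates on C57BL/6, and the Cre negative ones are called WT in the labels although they are also floxed. No label gives separate embryos for the libraries, so p-values measure the spread between libraries, which may be technical.

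Entry into mitosis depends on cyclin B bound to Cdk1, and exit depends on the anaphase-promoting complex (APC/C), which marks cyclin B and the anaphase inhibitor securin for destruction. In between, Aurora and Polo-like kinases, the kinetochore, kinesin motors and condensin assemble the spindle, attach it to the chromosomes and compact them, and the spindle checkpoint holds anaphase back until attachment is complete. Transcription of most of these genes is repressed in resting cells by the DREAM complex and peaks in G2 and M under MuvB with B-Myb and FoxM1. In fetal liver HSCs are known to divide actively, and proliferating cells of every lineage in the liver express the same genes, so that their levels describe division in a sort and not a cell type.

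A pair of DNA elements that are known from such promoters, the CCAAT box bound by NF-Y and the cell cycle homology region (CHR) bound by MuvB complexes, were searched in RefSeq promoter windows (GRCm38.p6, 250 bases before to 50 after a start). The letters searched were CCAAT, and TTTGAA or TTCGAA, each on both strands, so that a CCAAT box and a CHR can share an end base but no more. Windows were found for 38 of the 44 genes, 41 windows in all. Aurkb, Ccna2, Incenp, Kif20a, Smc4 and Tpx2 had no entry. The 7 promoters below show the 110 bases before the start, 5′ to 3′ on the gene's strand, with either motif in capitals, and ATTGG and TTCAAA being the motifs read on the opposite strand. They were picked to show the arrangements among genes of different roles, including both genes with the smallest p in macrophages.
Cdk1, chr10:69352913-69353022, minus strand: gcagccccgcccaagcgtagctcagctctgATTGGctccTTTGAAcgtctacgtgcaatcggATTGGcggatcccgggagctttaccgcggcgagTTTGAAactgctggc
Ccnb2, chr9:70421555-70421664, minus strand: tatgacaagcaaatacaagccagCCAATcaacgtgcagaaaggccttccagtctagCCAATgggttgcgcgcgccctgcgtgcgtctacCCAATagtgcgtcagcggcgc
Cdc20, chr4:118437344-118437453, minus strand: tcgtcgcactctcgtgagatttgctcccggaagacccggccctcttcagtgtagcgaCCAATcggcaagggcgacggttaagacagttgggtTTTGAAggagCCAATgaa
Kif11, chr19:37376272-37376381, plus strand: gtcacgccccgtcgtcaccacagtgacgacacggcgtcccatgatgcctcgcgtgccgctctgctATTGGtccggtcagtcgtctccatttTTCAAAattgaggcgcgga
Top2a, chr11:99024190-99024299, minus strand: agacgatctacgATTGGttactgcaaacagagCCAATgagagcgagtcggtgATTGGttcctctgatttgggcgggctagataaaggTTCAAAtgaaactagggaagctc
Prr11, chr11:87108715-87108824, minus strand: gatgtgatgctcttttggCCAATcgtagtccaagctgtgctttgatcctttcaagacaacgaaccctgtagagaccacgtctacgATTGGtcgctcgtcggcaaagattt
Cenpc1, chr5:86065584-86065693, minus strand: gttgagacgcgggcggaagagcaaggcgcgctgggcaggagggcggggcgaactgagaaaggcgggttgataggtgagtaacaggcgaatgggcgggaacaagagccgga

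Distances were counted to a motif's first base. In Cdc20 a CHR stood 18 bases before the start between CCAAT boxes at 53 and 8 bases before it. Cdk1 had CCAAT boxes at 80 and 48 bases before the start and a CHR at 71 and 15 bases before it. Ccnb2 carried 3 CCAAT boxes in the printed stretch, at 87, 54 and 21 bases before the start, thus at equal spacing of 33 bases, with a CHR from base 5 of the transcript. Top2a held 6 CCAAT boxes and 4 CHRs in its whole window, and Kif11 held 1 of each. Prr11, which encodes a proline-rich protein, held 4 CCAAT boxes and had its CHR from base 4 of the transcript. Cenpc1 differed from these, with no match before the start and 1 CCAAT box from base 15 of the transcript.

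A CCAAT box was found in 31 of the 38 genes (81.6%), against 41.1% of the 27025 genes in the promoter table. A CHR was likewise found in 31 of 38 (81.6%), against 21.7% of all genes. Both elements together were in 27 of 38 (71.1%), against 8.61% of all genes and 30.9% of 94 other G2/M genes with an entry. Within 50 bases of the start a CHR lay in 29 of the 41 windows (70.7%) and in 5.31% of the 32851 windows of all genes. Birc5, Nuf2 and Nusap1 had neither motif. Ccnb1, Cenpc1, Cenpe and Sgo2a had a CCAAT box without a CHR, and Anln, Kif2c, Knl1 and Ndc80 a CHR without a CCAAT box. A match is a description of letters, not evidence of binding, and no binding was measured in these samples.

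**Figure D1:**
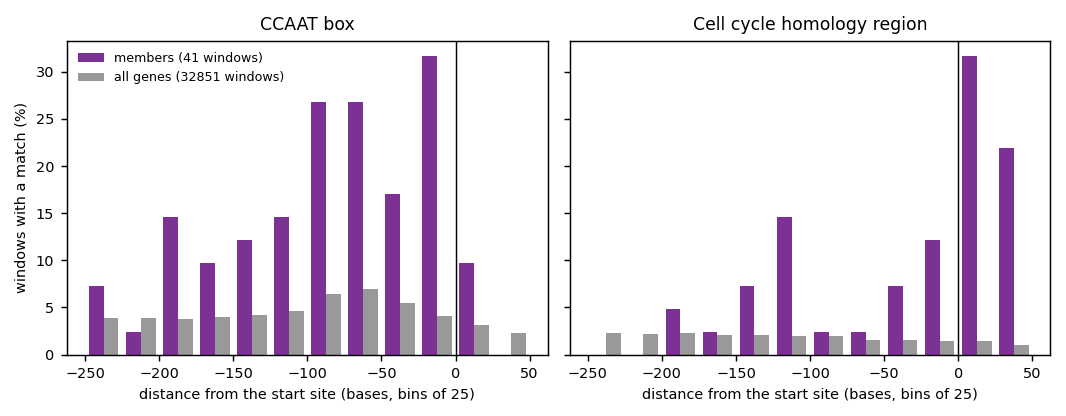
Share of promoter windows (y axis, percent) with a CCAAT box (left) or a CHR (right) starting in each bin of 25 bases, by distance from the RefSeq start (x axis, bases), for the 41 windows of the mitosis genes (purple) and the 32851 windows of all genes (grey). CCAAT boxes of the mitosis genes were most frequent just before the start (31.7% of windows in the last bin), and CHRs just after it (31.7% in the first bin).

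Depth was 51982064 to 77463770 reads in HSC libraries, 17230019 to 24658205 in Cre negative macrophage libraries and 2602934 to 5366990 in Cre positive ones, so that the macrophage groups differed in depth without overlap. Jag1 stood at 6.53, 6.87 and 1.16 CPM (counts scaled to library size) in the Cre negative HSC libraries and at 10.5, 0 and 19.5 in the libraries labelled Cre positive, and in macrophages at 52.6, 21.1 and 26.3 against 0, 10.6 and 6.79. The Jag1 reads in HSCs thus go against the label in 2 of 3 libraries labelled Cre positive, if the counted reads cover the deleted exons, which the labels do not give. All 12 listed HSC markers had reads in every HSC library (0.102% to 0.261% of reads), but 15 macrophage markers (0.229% to 0.356%) and 12 endothelial markers (0.655% to 1.29%) took more. None of the markers passed the threshold in either sort. In HSCs labelled Cre positive, 8 of 12 endothelial markers had a lower mean (median log2 difference -0.47). Of these, 4 had an unadjusted p under 0.05 in edgeR, where 3.97% of all genes were lower at that p. A higher mean was found in 8 of 8 neutrophil markers (median 0.63) and in 5 of 7 megakaryocyte markers (median 0.82), against 49.7% of all genes. Neutrophil markers took 0.110%, 0.147% and 0.167% of reads in Cre negative HSC libraries against 0.218%, 0.384% and 0.0872%. The third Cre positive library was thus the lowest of all. The 15 listed macrophage markers took 0.181% to 0.564% of macrophage reads and the endothelial markers took more, 0.797% to 1.65%. In Cre positive macrophages 14 of 15 macrophage markers had a lower mean (median log2 difference -1.10). So did 10 of 13 erythroid markers tested (median -1.34) and 8 of 12 hepatoblast markers (median -0.89). A higher mean was found in 10 of 12 endothelial markers (median 0.27). Over all genes in macrophages 43.9% had a higher mean, with a median of -0.16. Of the 15 macrophage markers 1 had an unadjusted p under 0.05 in edgeR, and none was without overlap. By share, macrophage markers were lowest in the first Cre negative library, at 0.181%, against 0.234% to 0.391% in Cre positive ones. That library also had the highest share of hepatoblast markers, 0.286%. The part of these shifts in the mitosis genes was not tested. The 14 erythroid markers measured took only 0.0115% to 0.0404% of macrophage reads, and up to 9 of them were at 0 in a Cre positive library.

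The 44 genes together took 0.658%, 0.808% and 0.567% of all counted reads in the 3 Cre negative HSC libraries and 0.695%, 0.751% and 0.619% in the 3 labelled Cre positive. These shares overlapped throughout, with means of 0.677% ± 0.122 (SD, n = 3) and 0.688% ± 0.0667 (SD, n = 3). In macrophages the shares were 0.884%, 0.570% and 0.607% in Cre negative and 0.972%, 0.762% and 0.801% in Cre positive libraries. The means were 0.687% ± 0.172 and 0.845% ± 0.112 (SD, n = 3 each), and the first Cre negative library lay between the Cre positive ones. Endothelial markers took 1.59%, 0.797% and 0.80% of reads in the Cre negative and 1.37%, 1.65% and 1.30% in the Cre positive macrophage libraries. The 4 libraries with over 1.3% of endothelial reads were thus the 4 in which the mitosis genes took over 0.76%, and the part of endothelial cells in the mitosis reads was not tested. In bulk RNA, fewer dividing cells and less of a transcript in each of them cannot be told apart.

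**Figure D2:**
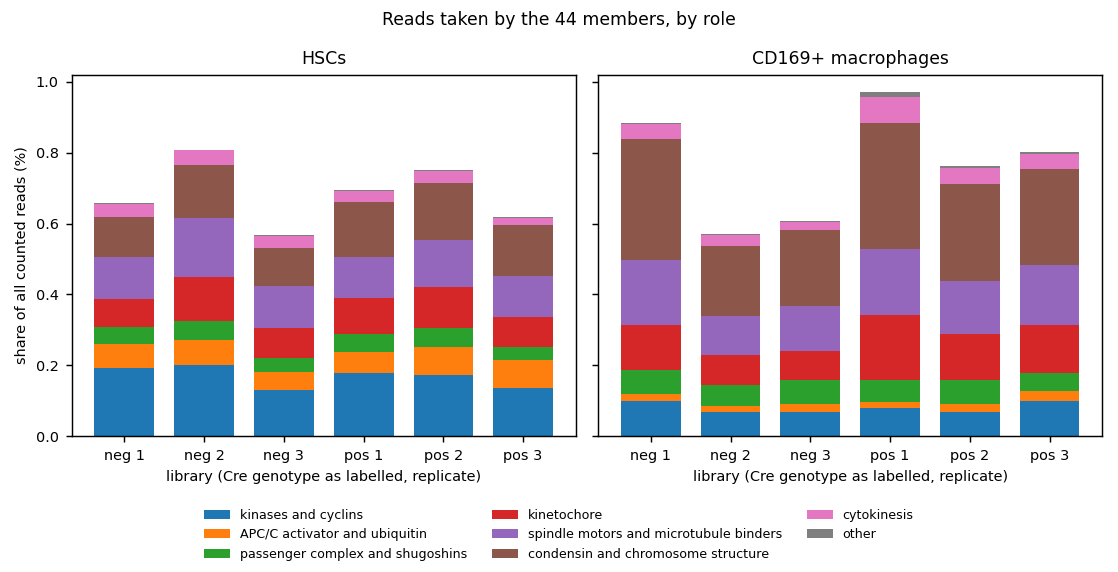
Share of all counted reads (y axis, percent) taken by the 44 genes in each library (x axis), stacked by role, for HSCs (left) and macrophages (right). HSC bars run from 0.567% to 0.808% with both genotypes interleaved, and in macrophages 2 Cre negative libraries (0.570% and 0.607%) lie below the other 4.

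Per kilobase of exon, the order of the genes differed between the tables, whose levels are not compared here. In HSCs the highest mean levels were those of cyclin B2 (Ccnb2, 182 CPM per kb, range over the 6 libraries 150 to 216), Cdc20 (170, range 140 to 194), Ube2c (138, range 90.6 to 168) and Plk1 (122, range 80.4 to 157). Each of these 4 overlapped its neighbour in the order. All libraries of Ccnb2, Cdc20 and Ube2c lay above all libraries of Birc5, the fifth gene at 68.8 CPM per kb (range 53.5 to 85.7). The lowest were Aspm (6.84), Sgo2a (4.79) and Prr11 (3.36, range 1.23 to 4.65).

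In macrophages Mki67, the gene of the Ki-67 protein that coats mitotic chromosomes and marks dividing cells, led at 166 CPM per kb (range 122 to 225), followed by Incenp at 106 (range 65.2 to 136). Ccnb2 (67.9, range 42.1 to 160), Tpx2 (62.2), Ube2c (61.3), Top2a (50.6) and Bub1b (47.1) came next and overlapped each other. Ccnb1 (7.47), Sgo1 (7.36), Ttk (6.98) and Sgo2a (4.19) closed the order. Mki67 held rank 22 of 44 in HSCs at 26.8 CPM per kb (range 15.9 to 38.2), and Cdc20 held rank 15 in macrophages at 27.3 (lowest library 8.26). Because the tables differ in annotation and perhaps in counting, these ranks compare genes within a table.

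**Figure D3:**
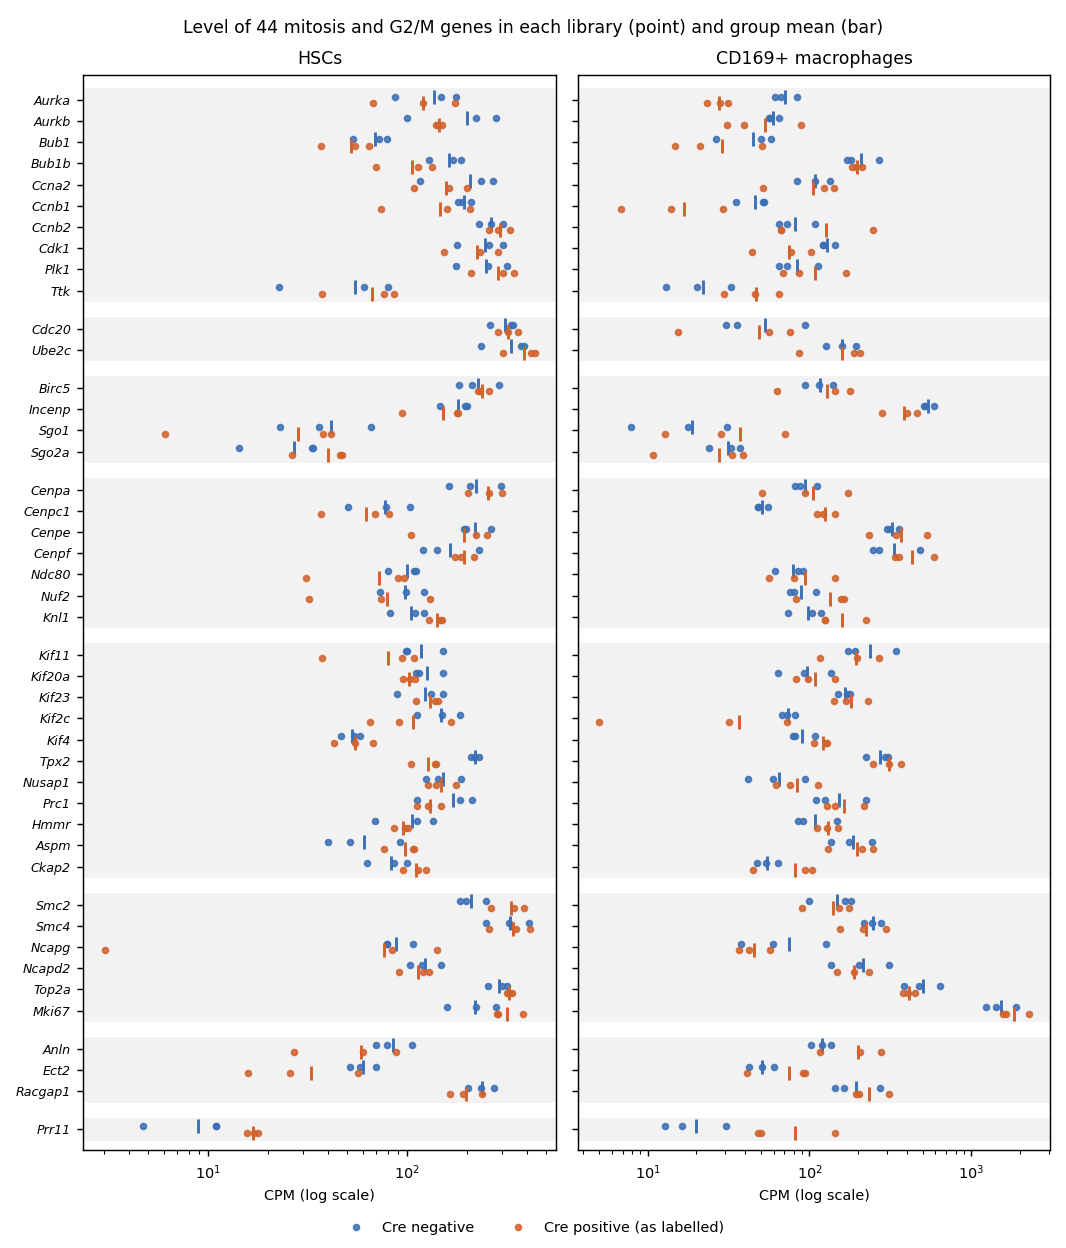
Level of each of the 44 genes in every library (points, x axis in CPM on a log scale) with the group mean (bar), Cre negative in blue and Cre positive as labelled in orange, for HSCs (left) and macrophages (right). Shaded blocks follow the roles from kinases and cyclins at the top to cytokinesis, with Prr11 last. Groups overlap for 37 of the 44 genes in each sort.

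HSCs labelled Cre positive were compared with Cre negative HSCs to ask whether deleting Jag1 in blood cells alters the division program. None of the 44 genes passed an adjusted p of 0.05 in edgeR's quasi-likelihood test, where 0.00% of all 13962 genes tested did, and the smallest adjusted p among the 44 was 0.689. At an unadjusted p under 0.05 there were 2 of 44 (4.55%), 1 higher and 1 lower, against 6.39% of all genes (2.42% higher and 3.97% lower), and DESeq2 called 0 of the 44, against 0.206% of genes called higher and 0.807% lower. Means were higher in 19 genes and lower in 25, with a median log2 difference of -0.14 beside -0.00 for all genes, of which 49.7% had a higher mean. Levels of the groups did not overlap in 5 genes in the higher direction (11.4%, against 6.37% of all genes) and in 2 in the lower (4.55%, against 9.33%). The unadjusted 95% interval of the difference lay within 2-fold either way for 20 of the 44 genes (45.5%, against 17.3% of all genes), and for the other 24 a 2-fold difference lies inside the interval.

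Among the kinases and cyclins in HSCs, 3 of 10 had a higher mean in Cre positive libraries and 7 a lower one, with a median log2 difference of -0.29. Cdk1, the kinase that starts mitosis, stood at 303, 258 and 178 CPM in Cre negative and 234, 154 and 288 in Cre positive libraries. Its partner cyclin B1 (Ccnb1) stood at 190, 210 and 180 against 208, 158 and 73.7 CPM, and cyclin A2 (Ccna2), which acts from S phase into early mitosis, at 235, 270 and 117 against 200, 163 and 109. For all 3 genes the groups overlapped, and in Ccnb1 the third Cre positive library alone was low. Their log2 differences were -0.13 (SE 0.30), -0.40 (SE 0.36) and -0.40 (SE 0.36).

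Bub1b encodes BubR1, which holds the APC/C inactive in the spindle checkpoint. It stood at 187, 171 and 130 CPM in Cre negative and 133, 114 and 70.4 in Cre positive HSC libraries, the smallest p of the kinases and cyclins, and the highest Cre positive library exceeded the lowest Cre negative one by a little. The log2 difference was -0.62 (SE 0.29, unadjusted p = 0.0694, edgeR adjusted p = 0.807). Aurkb, the catalytic kinase of the chromosomal passenger complex, stood at 280, 223 and 99.6 against 140, 143 and 150 CPM, so that the Cre negative libraries alone were widely spread (log2 difference -0.48, SE 0.36). Aurka, the spindle pole kinase, overlapped as well, at 177, 148 and 86.9 against 120, 175 and 67.5 CPM. Plk1, the Polo-like kinase of mitotic entry and spindle assembly, stood at 318, 255 and 177 against 304, 346 and 211 CPM (log2 difference 0.20, SE 0.28).

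The APC/C activator Cdc20 was among the steadiest genes in HSCs, at 339, 333 and 262 CPM in Cre negative and 286, 322 and 362 in Cre positive libraries. Its log2 difference was 0.05, with a 95% interval from -0.40 to 0.50. Ube2c, the ubiquitin-conjugating enzyme that works with the APC/C, ranged from 236 to 438 CPM over the 6 libraries.

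Of the 4 passenger complex and shugoshin genes, 2 had a higher and 2 a lower mean in Cre positive HSC libraries. Birc5 (survivin), the subunit that brings the complex to centromeres, stood at 212, 291 and 182 against 228, 259 and 232 CPM (log2 difference 0.07, SE 0.23). Incenp, the scaffold of the complex, stood at 200, 197 and 146 against 179, 180 and 94.1, and Sgo2a, a shugoshin that protects centromeric cohesin, at 33.2, 33.9 and 14.4 against 26.4, 47.3 and 46.2. Both overlapped between the groups. Sgo1 varied most among them, from 6.13 CPM in the third Cre positive library to 65.7 in the first Cre negative one.

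Kinetochore genes were divided, with 3 of 7 higher and 4 lower and a median log2 difference of -0.18 in HSCs. Knl1, the scaffold on which checkpoint proteins assemble, was one of the genes without overlap, at 82.2, 122 and 110 CPM in Cre negative and 151, 146 and 129 in Cre positive libraries (log2 difference 0.44, SE 0.24, unadjusted p = 0.100, edgeR adjusted p = 0.848). Ndc80, the microtubule-binding subunit of the outer kinetochore, stood at 108, 111 and 80.0 against 97.1, 90.3 and 31.0 CPM, with the third Cre positive library alone far below the rest. Cenpa, the histone H3 variant of centromeres, overlapped at 209, 296 and 162 against 204, 260 and 301 CPM. Cenpc1, Cenpe, Cenpf and Nuf2 also overlapped, with log2 differences between -0.31 and 0.23.

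Tpx2, which activates Aurora A on the spindle, had the smallest p of the 44 genes in HSCs. The gene lies at chr2:152847964-152895321 on the plus strand. It stood at 220, 230 and 211 CPM in Cre negative and 139, 105 and 140 in Cre positive libraries, so that all 3 Cre positive libraries were low and the groups did not overlap (220 ± 9.58 against 128 ± 19.9 CPM, SD, n = 3 each). The log2 difference was -0.78 (SE 0.21, 95% interval -1.26 to -0.31, unadjusted p = 0.00529), with an adjusted p of 0.689 in edgeR and 0.0743 in DESeq2.

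The other 10 spindle motors and microtubule binders included 4 with a higher mean in Cre positive HSC libraries and 6 with a lower one. Kif11, the kinesin that pushes spindle poles apart, stood at 101, 152 and 99.3 CPM in Cre negative and 94.9, 109 and 37.5 in Cre positive libraries, the last being the only low one (log2 difference -0.55, SE 0.41). Aspm, a spindle pole protein, stood at 51.7, 92.0 and 39.9 against 76.5, 108 and 107 CPM, and 1 Cre negative library lay inside the Cre positive range (log2 difference 0.67, SE 0.37, unadjusted p = 0.107). Kif20a, a kinesin of the central spindle noted here after its values were seen, did not overlap, at 111, 151 and 115 against 109, 104 and 95.5 CPM, though its nearest libraries were almost equal.

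Condensin and chromosome structure genes held 3 of the 5 genes that were higher without overlap in HSCs. Of the 44 genes 15.9% were without overlap in either direction, against 15.7% of all genes tested. Whether this role differed from the others was not tested. Smc2, the core ATPase shared by both condensins, stood at 197, 248 and 185 CPM in Cre negative and 266, 389 and 344 in Cre positive libraries (210 ± 33.6 against 333 ± 62.5 CPM, SD, n = 3 each). All 3 Cre positive libraries were above the highest Cre negative one. The log2 difference was 0.66 (SE 0.22, 95% interval 0.15 to 1.18, unadjusted p = 0.0176), with an adjusted p of 0.689 in edgeR and 0.184 in DESeq2. Smc2 lies at chr4:52439243-52488260 on the plus strand.

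Smc4, which forms the condensin ATPase pair with Smc2, stood at 324, 413 and 251 against 353, 414 and 258 CPM, with overlapping groups (log2 difference 0.05, 95% interval -0.55 to 0.65). Mki67 stood at 224, 280 and 160 against 286, 284 and 384 CPM, without overlap but with near neighbours at 280 and 284 (log2 difference 0.53, SE 0.26, unadjusted p = 0.0744, edgeR adjusted p = 0.815). Top2a, the topoisomerase that untangles sister chromatids, was the steadiest of the 44 genes, with a highest library 1.33 times the lowest. It stood at 317, 301 and 255 against 339, 317 and 324 CPM, and although the groups did not overlap, the log2 difference was 0.17 (SE 0.18). The non-SMC condensin subunits overlapped: Ncapd2 ranged from 91.0 to 148 CPM, and Ncapg stood at 3.04 CPM in the third Cre positive library and at 79.1 to 142 in the other 5.

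As a group the 6 condensin and chromosome structure genes took 0.107% to 0.150% of reads in Cre negative and 0.144% to 0.162% in Cre positive HSC libraries, which overlapped slightly. Their median log2 difference was 0.11. Beyond the 6, the 14 other condensin and cohesin genes listed took 0.164% to 0.194% against 0.198% to 0.225% of reads in HSCs, without overlap. A higher mean was found in 11 of the 14, against 49.7% of all genes. Smc3, a cohesin ATPase, was the smallest p of these at 255, 288 and 279 against 321, 353 and 394 CPM (log2 difference 0.38, unadjusted p = 0.0658, edgeR adjusted p = 0.807). None of the 14 passed the adjusted threshold, and 2 were higher and 1 lower without overlap (6.37% and 9.33% of all genes). In macrophages the same 14 took 0.231% to 0.247% against 0.272% to 0.383% of reads, also without overlap. There 8 of the 14 had a higher mean, against 43.9% of all genes. In that sort 1 was higher and 1 lower without overlap (2.27% and 11.8% of all genes).

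All 3 cytokinesis genes had a lower mean in Cre positive HSC libraries, with none past the threshold. Ect2, the exchange factor that activates RhoA at the division plane, stood at 51.9, 58.0 and 69.9 against 57.1, 16 and 25.9 CPM, with 2 of 3 Cre positive libraries low (log2 difference -0.86, SE 0.49, unadjusted p = 0.121, edgeR adjusted p = 0.867). Anln (anillin), which links the contractile ring to the membrane, stood at 69.7, 106 and 79.5 against 60.3, 88.5 and 27.2 CPM (log2 difference -0.53, SE 0.44). Racgap1, the centralspindlin subunit that recruits Ect2, ranged from 165 to 275 CPM. Prr11 was low in every library and did not overlap, at 11, 11 and 4.70 against 15.7, 17.0 and 17.8 CPM (log2 difference 0.92, SE 0.72, unadjusted p = 0.239).

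Single libraries set much of the spread in HSCs. The third Cre positive library was more than 2-fold below the median of the other 5 in 10 of the 44 genes, which include Ncapg, Sgo1, Ndc80 and Kif11, against 0 to 4 genes in any other library. In the same library 19.4% of all genes in the same range of mean CPM were more than 2-fold below, against 3.83% to 12.2% in the other libraries. The third Cre negative library was the lowest of the 6 in 18 of the 44 genes (40.9%, against 14.49% of all genes), and the third Cre positive library in 15 (34.1%, against 30.0%). The second Cre negative library was the highest in 17 (38.6%, against 10.6% of all genes). Without the third Cre positive library the median log2 difference of the 44 genes was 0.02 with 23 genes higher, and without the second Cre negative it was 0.00 with 22 higher, in both cases with 0 genes called.

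**Figure D4:**
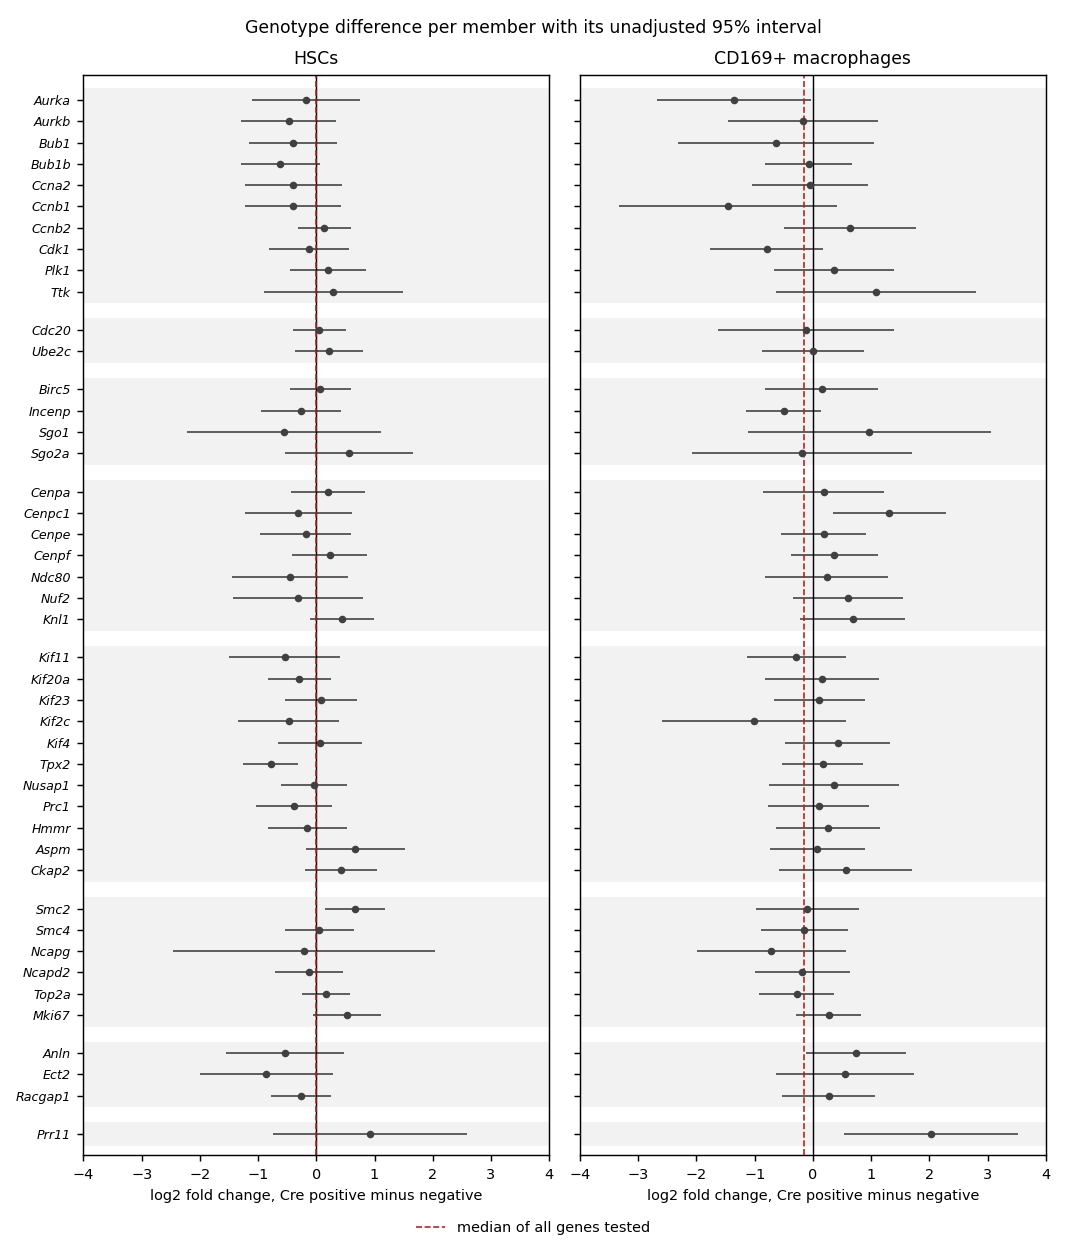
Log2 difference between Cre positive and Cre negative libraries (x axis; point) with its unadjusted 95% interval (line) for each of the 44 genes in HSCs (left) and macrophages (right), in the same order by role as in the plot of levels. The dashed red line is the median of all genes tested (-0.00 in HSCs, -0.16 in macrophages). The interval excludes 0 for Tpx2 and Smc2 in HSCs and for Aurka, Cenpc1 and Prr11 in macrophages.

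The same comparison in CD169+ macrophages also gave 0 of 44 genes at an adjusted p under 0.05, where 0.00% of all 17806 genes tested passed, and the smallest adjusted p was 0.773 (edgeR). At an unadjusted p under 0.05 there were 3 genes (6.82%), 2 higher and 1 lower, against 5.42% of all genes (0.511% higher and 4.91% lower), and DESeq2 called 0 of the 44, against 0.0754% of genes called higher and 0.384% lower. Means were higher in 27 genes and lower in 17, with a median log2 difference of 0.15 beside -0.16 for all genes, of which 43.9% had a higher mean. This split moved to 32 higher with upper-quartile scaling, to 34 with library totals or DESeq2 and to 35 with RLE scaling, and the median of the 44 minus that of all genes was 0.30 to 0.31 under these scalings. That value depended on the genes and libraries used. Among genes with a mean of at least 5 CPM, whose own median was 0.03, it was 0.23, and thinned to equal depth it was 0.28. It was 1.24 without a filter on low counts and 0.82 with the replicate block. It was 0.45 without the first and 0.20 without the second Cre negative library. Without the second and without the third Cre positive one it was 0.84 and 0.49. Groups did not overlap in 3 genes in the higher direction (6.82%, against 2.27% of all genes) and 4 in the lower (9.09%, against 11.8%). The interval lay within 2-fold either way for 11 of 44 genes, against 3.21% of all genes, so that for the other 33 a 2-fold difference lies inside it.

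Among the kinases and cyclins, 3 of 10 had a higher mean in Cre positive macrophages and 7 a lower one. Aurka, at chr2:172356190-172370535 on the minus strand, stood at 61.6, 83.6 and 66.9 CPM in Cre negative and 23.4, 27.9 and 31.5 in Cre positive libraries (70.7 ± 11.5 against 27.6 ± 4.06, SD, n = 3 each). The groups were widely apart, with all 3 Cre positive libraries low. The log2 difference was -1.36 (SE 0.63, 95% interval -2.68 to -0.03, unadjusted p = 0.0458, edgeR adjusted p = 0.893).

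Cdk1 and Ccnb1, kinase and cyclin of the same complex, were likewise lower without overlap in macrophages. Cdk1 stood at 143, 122 and 122 against 102, 77.3 and 44 CPM (log2 difference -0.79, SE 0.46, unadjusted p = 0.102). Ccnb1 stood at 52.1, 51.5 and 35.1 against 14.0, 6.88 and 29.4 CPM (log2 difference -1.46, SE 0.89, unadjusted p = 0.117). Neither passed the threshold (adjusted p = 1.00 for both in edgeR), and the other B-type cyclin, Ccnb2, had values of 72.3, 64.5 and 108 against 66.6, 67.1 and 245 CPM, with 1 high Cre positive library. Its log2 difference was 0.63 (SE 0.54).

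The remaining kinases and cyclins overlapped between the macrophage groups. Bub1b was the steadiest of the 44 genes there, at 268, 182 and 171 against 211, 184 and 194 CPM, a highest library 1.57 times the lowest. Aurkb stood at 57.2, 56.2 and 65.1 against 30.9, 39.6 and 88.4 CPM, Ccna2 at 135, 83.9 and 108 against 51.8, 123 and 141, and Plk1 at 113, 64.7 and 73.1 against 169, 86.3 and 68.4. In these last 3 genes the Cre positive libraries lay on both sides of at least 1 Cre negative library. Cdc20 ranged from 15.4 to 93.4 CPM with both extremes in different groups (93.4, 30.3 and 35.7 against 75.6, 15.4 and 56.0), and Ube2c had equal means of 159 CPM.

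Incenp stood at 518, 508 and 588 CPM in Cre negative and 403, 459 and 282 in Cre positive macrophage libraries, again without overlap (log2 difference -0.50, SE 0.31, unadjusted p = 0.122, edgeR adjusted p = 1.00). Birc5, its partner in the complex, overlapped at 93.4, 139 and 115 against 62.6, 144 and 178 CPM (log2 difference 0.15, SE 0.46). Sgo1, the shugoshin of mitotic centromeres, varied 8.91-fold over the 6 libraries, at 7.88, 17.9 and 31.0 against 70.2, 28.4 and 12.9 CPM. The highest and the second lowest of these values were both Cre positive.

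All 7 kinetochore genes had a higher mean in Cre positive macrophages, with a median log2 difference of 0.36 (0.52 above the median of all genes) and none past the threshold. This held in each alternative for 4 of the 7, while Cenpe and Ndc80 were at -0.23 and -0.27 without the first Cre positive library and Cenpa at -0.43 without the third. Cenpc1 encodes CENP-C, which ties the kinetochore to centromeric nucleosomes, and lies at chr5:86012024-86065583 on the minus strand. It stood at 48.2, 48.3 and 55.1 CPM in Cre negative and 122, 112 and 143 in Cre positive libraries (50.5 ± 3.95 against 125 ± 16, SD, n = 3 each). Within each group the libraries were close together, and the lowest Cre positive one was well above the highest Cre negative one. The log2 difference was 1.31 (SE 0.46, 95% interval 0.34 to 2.28, unadjusted p = 0.0111), with an adjusted p of 0.773 in edgeR and 0.121 in DESeq2.

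Knl1 also did not overlap, at 118, 104 and 73.6 against 125, 125 and 223 CPM, with 1 Cre positive library well above the others (log2 difference 0.68, SE 0.43, unadjusted p = 0.129). Cenpa overlapped at 112, 87.0 and 81.2 against 51.1, 93.7 and 172 CPM, as did Ndc80 at 84.9, 60.9 and 90.7 against 143, 79.8 and 56.6. Their log2 differences were 0.18 (SE 0.49) and 0.24 (SE 0.50). Together the 7 genes took 0.0836% to 0.128% of reads in Cre negative and 0.128% to 0.184% in Cre positive libraries, where the extremes of the groups met. The higher of the Cre negative values belongs to the first library, which also had 1.59% of endothelial marker reads.

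Of the 11 spindle motors and microtubule binders, 9 had a higher mean in Cre positive macrophages and none had groups that did not overlap. Tpx2, the gene with the smallest p in HSCs, stood at 306, 223 and 291 against 368, 247 and 310 CPM in macrophages (log2 difference 0.17, 95% interval -0.52 to 0.87). Kif2c, a kinesin that depolymerizes microtubules at centromeres, had the smallest p of its group through 2 low libraries, at 67.8, 72.2 and 81.8 against 5.04, 72.9 and 32.0 CPM (log2 difference -1.01, SE 0.75, unadjusted p = 0.197). Kif11 stood at 344, 190 and 172 against 268, 196 and 117 CPM, and Ckap2, a microtubule-associated protein, at 63.7, 47.5 and 53.5 against 104, 45.0 and 94.5. In both, the ranges of the groups overlapped.

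Condensin and chromosome structure genes, of which 3 were higher without overlap in HSCs, showed no separated gene in macrophages, with 1 of 6 means higher. Mki67 stood at 1890, 1230 and 1429 against 2267, 1575 and 1641 CPM (1517 ± 339 against 1828 ± 382, SD, n = 3 each, log2 difference 0.27, 95% interval -0.30 to 0.83). Top2a stood at 643, 381 and 477 against 379, 408 and 449 CPM, and Smc2 at 165, 181 and 99.5 against 153, 174 and 90.1. Smc4 was at 278, 217 and 243 against 297, 215 and 155 CPM. Ncapg, a non-SMC subunit of condensin, was at 126, 59.8 and 37.8 against 57.2, 42.2 and 36.9, with only the first Cre negative library high (log2 difference -0.71, SE 0.61, unadjusted p = 0.258).

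All 3 cytokinesis genes had a higher mean in Cre positive macrophages, the opposite side of 0 from HSCs, except that Racgap1 was at -0.03 without the first Cre positive library. Anln stood at 120, 136 and 101 against 276, 205 and 117 CPM, with 2 of 3 Cre positive libraries high (log2 difference 0.74, SE 0.41, unadjusted p = 0.0885, edgeR adjusted p = 1.00). Ect2 stood at 51.2, 60.1 and 42.3 against 93.6, 40.9 and 91.2 CPM (log2 difference 0.55, SE 0.56). Prr11 had the largest difference of the 44 genes, at 16.3, 30.3 and 12.8 against 144, 50.4 and 48.4 CPM, without overlap and with the first Cre positive library, the shallowest of all, far above the rest. The log2 difference was 2.03 (SE 0.71, 95% interval 0.54 to 3.52, unadjusted p = 0.0106), with an adjusted p of 0.773 in edgeR and 0.138 in DESeq2. Without the first Cre positive library it was 1.25.

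Whether the genotype difference itself differed between the sorts was tested as an interaction over 20128 genes shared by both tables. None of the 44 genes passed an adjusted p of 0.05, against 0.0696% of all genes, and the smallest adjusted p was 0.534 (edgeR). The macrophage minus HSC difference was positive in 27 genes and negative in 17, with a median of 0.18 beside -0.21 for all genes. At an unadjusted p under 0.05 there were 2 genes, against 8.62% of all genes: Cenpc1 (1.6 on the log2 scale, SE 0.66, unadjusted p = 0.0239, edgeR adjusted p = 0.534) and Tpx2 (0.93, SE 0.44, unadjusted p = 0.0444, edgeR adjusted p = 0.573). Anln followed at 1.26 (edgeR adjusted p = 0.608), and on the negative side Aurka at -1.18 (edgeR adjusted p = 0.655), Smc2 at -0.78 (0.732) and Ccnb1 at -1.09 (0.750). Sort and table are the same split of the libraries, so that a difference between cell types and one between the data sets cannot be told apart.

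Other genes of the G2/M program were listed by role. Of 113 in HSCs, 52 had a higher and 61 a lower mean in Cre positive libraries with 0 called (median log2 difference -0.06), and of 112 tested in macrophages 61 were higher and 51 lower with 0 called (median 0.06). Over all genes 49.7% in HSCs and 43.9% in macrophages had a higher mean, with medians of -0.00 and -0.16. The phosphatase Cdc25b, which activates Cdk1, had the smallest p of the regulators in HSCs, at 45.4, 55.4 and 45.0 against 27.3, 15.0 and 13.2 CPM, without overlap. Its log2 difference was -1.39 (SE 0.43, unadjusted p = 0.0117, edgeR adjusted p = 0.689).

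Rbl1 (p107), a pocket protein of the DREAM complex, stood at 46.7, 77.1 and 65.6 against 32.2, 27.4 and 36.4 CPM in HSCs, again without overlap (log2 difference -0.98, unadjusted p = 0.0208). The APC/C subunit Cdc23 stood at 178 ± 13.8 against 96.6 ± 37.3 CPM, and the spindle kinesin Kif15 at 58.4 ± 11 against 111 ± 24.6 (SD, n = 3 each). Neither pair of groups overlapped. Spc24, which anchors the Ndc80 complex, was at 109 ± 5.81 against 183 ± 48.9 CPM and lay on the higher side. Each of these had an edgeR adjusted p of 0.689 and was named for having the smallest p of its list. Of the 113 genes, 6 were higher and 8 lower without overlap in HSCs, against 6.37% and 9.33% of all genes. At an unadjusted p under 0.05 in edgeR, 3 were higher and 4 lower, against 2.42% and 3.97% of all genes.

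In macrophages, Ska1, a subunit of the Ska complex that couples kinetochores to microtubules, stood at 2.95, 16.9 and 22.0 against 32.4, 46.9 and 83.7 CPM (log2 difference 1.96, SE 0.91, unadjusted p = 0.0468). Mad2l1, the checkpoint protein Mad2, stood at 27.7, 40.1 and 38.6 against 127, 54.7 and 53.6 CPM (log2 difference 1.14, unadjusted p = 0.0786). Both were higher in all 3 Cre positive libraries. Of the 33 checkpoint and other kinetochore genes listed, which include both, 20 had a higher mean, against 43.9% of all genes. Their median log2 difference was 0.25 beside -0.16 for all genes. Without overlap, 3 of the 33 were higher and 1 lower. Pimreg, a regulator of the metaphase to anaphase step, lay on the other side at 81.4, 48.2 and 61.0 against 23.7, 18.6 and 13.6 CPM (log2 difference -1.77, SE 0.73, unadjusted p = 0.0259). None passed adjustment (edgeR adjusted p = 0.773 or higher). Of the 112 genes tested, 9 were higher and 6 lower without overlap in macrophages, against 2.27% and 11.8% of all genes. At an unadjusted p under 0.05 in edgeR, 2 were higher and 1 lower, against 0.511% and 4.91%.

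Genes of G1/S and DNA replication, the preceding phase, had lower means in 16 of 22 cases in each sort, with 0 called. Their median log2 differences were -0.37 in HSCs and -0.42 in macrophages, beside -0.00 and -0.16 for all genes. Of all genes, 49.7% in HSCs and 43.9% in macrophages had a higher mean. The 22 genes took 0.368% to 0.398% of reads in Cre negative and 0.259% to 0.336% in Cre positive HSC libraries. In macrophages they took 0.142% to 0.154% against 0.115% to 0.140%. The shares did not overlap in either sort, though the nearest macrophage libraries stood at 0.142% and 0.140%. Gene by gene, 2 of the 22 were lower without overlap in HSCs and 0 in macrophages, against 9.33% and 11.8% of all genes. In HSCs Mcm5, a subunit of the replicative helicase, stood at 378, 319 and 316 against 187, 226 and 209 CPM (log2 difference -0.70, SE 0.19, unadjusted p = 0.00533, edgeR adjusted p = 0.689). In macrophages Pcna, the sliding clamp of DNA polymerase, stood at 59.8, 71.6 and 122 against 14.4, 62.7 and 19.3 CPM (log2 difference -1.39, unadjusted p = 0.0539). The shares of the 44 mitosis genes overlapped between genotypes in both sorts, and the difference between the lists was not tested.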

How the data were processed

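RNA of sorted fetal liver cells was sequenced after SMART-Seq v4 amplification, which does not mark strand, per the labels' protocols, from 2000 HSCs or 1000 to 3000 macrophages per library (1 ng RNA and 11 cycles for macrophages). The authors deposited 1 table of raw, unscaled read counts per gene for each sort. Alignment with STAR 2.7.6a and counting by featureCounts (Subread 2.0.1) on GRCm38 are named for HSCs, per the submitters' processing notes. The macrophage entries name mm10 alone, with no aligner or counter given in the sources used here, and for neither sort are strand and multiple-mapping settings given. Overlapping and antisense genes may thus share reads. Every sample column was assigned to a library.

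Each table was analysed on its own in R 4.3.3 with edgeR 4.0.16 (limma 3.58.1): filterByExpr by genotype group, TMM scaling, robust quasi-likelihood test of Cre positive minus negative over all genes, Benjamini-Hochberg adjustment over all of them and a threshold of 0.05. An interaction model used the 32210 shared identifiers. CPM uses TMM-scaled totals, levels per kb the GENCODE M21 exon union, and shares all counted reads. A count of 3 equals 0.0386 to 0.0561 CPM in HSC, 0.138 to 0.174 in Cre negative and 0.522 to 1.08 in Cre positive macrophage libraries, for counting error only. DESeq2 1.42.0, other scalings and filters, thinning to equal depth, the replicate block and leaving out each library were alternatives. The procedure was also run on simulated counts with known changes, whose recovery is not reported here. Libraries of 1 group differed by more than sampling noise (chi-square per degree of freedom 51.2 to 831).

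The members and lists were chosen with earlier results of these data known. Named with the value in each library are 18 genes fixed by role and, in each sort and role of 3 or more genes, the 2 with the smallest p. Of other genes, up to 3 per list and sort with the smallest p could be named. Other members named (such as Ccnb2, Kif20a, Ncapg in HSCs and Prr11) were singled out after their values were seen.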

Additional observations from a re-analysis of the deposited data

How the results depend on the processing

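None of the 44 genes was called under any alternative tried, which were 14 in each sort and 15 for the interaction. The smallest adjusted p of any of the 44 was 0.0743 in HSCs, 0.121 in macrophages and 0.113 for the interaction, each by DESeq2. In macrophages the median log2 difference, 0.15 as reported, became 0.36 with DESeq2, 0.36 with RLE scaling and 0.35 with library totals. Under these settings the median of all genes also moved, to between 0.04 and 0.05. The cause of these shifts was not tested. Leaving out 1 library at a time gave medians of -0.27 to 0.02 in HSCs, -0.01 to 0.29 in macrophages and 0.04 to 0.47 for the interaction. The lowest macrophage value was that without the first Cre positive library, and the highest that without the first Cre negative one. The lowest HSC value was that without the third Cre negative library. The sign held under all alternatives in 29 of 44 genes in HSCs, 22 in macrophages and 28 for the interaction.

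No pairing of the libraries by replicate number was seen (correlation of same-numbered deviations -0.033 to 0.012 in HSCs and -0.016 to 0.027 in macrophages). With 3 libraries per group this cannot exclude a shared litter or day. With the replicate block the median was -0.13 in HSCs, 0.10 in macrophages and 0.13 for the interaction, with 0 of the 44 called. Over all genes, counts called changed more, from 0 to 133 in HSCs and to 61 in macrophages with DESeq2, and in macrophages to 21 without a filter, to 13 with the block and to between 1 and 34 with 1 library left out. For the interaction, 14 called became 8 with library totals, 747 with DESeq2, 96 with the block and 6 to 210 with 1 library left out. Thinned to equal depth, the macrophage median was 0.28. The share of promoters with a CHR was 76.3% with TTTGAA alone, and that with a CCAAT box 78.9% in a window from 150 bases before the start.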

Other observations

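Exon length went with the genotype difference only weakly. Across the 44 genes, which share libraries and are not independent, the Pearson correlation of the log2 difference with log2 exon length was 0.08 in HSCs and 0.07 in macrophages. Across the 6132 macrophage genes in the same range of mean CPM it was 0.20, and across 9050 such genes in HSCs 0.01. The kinetochore genes have a median exon length of 6493 bases and the kinases and cyclins one of 4150 bases. The condensin and chromosome structure genes, with 1 of 6 means higher in Cre positive macrophages, have one of 6666.5 bases. The part of exon length in the differences between roles was not tested.

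In macrophages the first Cre positive library, the shallowest, was the highest of the 6 in 16 of the 44 genes (36.4%, against 16.4% of all genes tested) and the lowest in 9 (20.5%, against 30.7%). The third Cre positive library was the highest in 11 (25%, against 19.5%) and the lowest in 11 (25%, against 29.8%).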
